A study of Homo sapiens with 12 samples.

Results

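The genes described here are the long intergenic noncoding RNA genes that carry a numbered LINC symbol, such as LINC00657. They were taken as every row of the deposited expression table whose symbol is LINC followed by digits only, which gave 514 of 22170 gene rows. The cells were SKBR3, an established line from a HER2-positive breast cancer, wild type in genotype per the labels, in which the receptor tyrosine kinase gene ERBB2 (HER2) is amplified. Lapatinib blocks the kinases of EGFR and HER2, and GSK126 blocks EZH2, the enzyme of the Polycomb complex PRC2 that methylates histone H3 at lysine 27 and keeps its target genes repressed. The 4 groups of 3 libraries were the combination (5 µM GSK126 for 7 days with 100 nM lapatinib in the last 24 h), GSK126 alone (5 µM, 7 days), lapatinib alone (100 nM, 24 h) and DMSO, the vehicle. All groups are 1 cell line. Nothing in the labels ties the libraries of a group to separate cultures, and their spread, on which every p-value rests, may be technical.

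LINC symbols are provisional names. They are given to transcripts with no recognised protein and no neighbouring gene to name them after, and are replaced when a function, a host microRNA or a small protein is found. Many such genes are transcribed in 1 or a few tissues and are silent elsewhere, and PRC2 is known to hold many tissue-restricted genes silent. In RefSeq 480 of the 514 members are now filed as long noncoding RNAs, 27 as protein-coding genes and 5 as transcribed pseudogenes. The best studied of those that were abundant here is LINC00657, renamed NORAD, a cytoplasmic RNA that binds Pumilio proteins and keeps them from their target messages. LINC00925, renamed MIR9-3HG, is the host gene of 1 of the copies of miR-9, and LINC00461, renamed MIR9-2HG, is the host of another.

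The mature miR-9 sequences that RefSeq (GRCh38.p14) gives inside LINC00925 are shown because this host gene was lower in all 4 comparisons below. They lie on the plus strand, and the seed, bases 2 to 8, is in capitals. The copy inside LINC00461 on chromosome 5 gives the same sequences, so that both hosts share both seeds. The libraries measured the host transcripts, not the microRNAs.
hsa-miR-9-5p, chr15:89368032-89368054: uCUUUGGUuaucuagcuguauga
hsa-miR-9-3p, chr15:89368071-89368092: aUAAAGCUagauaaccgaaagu

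The promoters of 4 members on which the results turn are shown as RefSeq gives them for GRCh38.p14, from 250 bases before the transcript start to 50 after it, read 5′ to 3′ on the gene's strand. Capitals mark CG dinucleotides, the sites of DNA methylation that cluster in CpG islands. LINC00657 was higher with lapatinib and LINC00925 was lower with either drug, whereas LINC00673 and LINC01133 were higher when GSK126 was present. The windows hold 23, 13, 26 and 1 CG sites in the order in which they are printed, so that the pair that rose with GSK126 includes both the most and the fewest.
LINC00657, chr20:36050911-36051210, minus strand: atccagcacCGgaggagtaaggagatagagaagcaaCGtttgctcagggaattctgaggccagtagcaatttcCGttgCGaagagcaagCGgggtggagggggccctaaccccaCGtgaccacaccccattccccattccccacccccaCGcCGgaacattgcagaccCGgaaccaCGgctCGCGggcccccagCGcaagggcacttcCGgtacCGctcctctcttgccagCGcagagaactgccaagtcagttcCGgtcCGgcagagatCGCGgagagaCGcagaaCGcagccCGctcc
LINC00925, chr15:89361329-89361628, plus strand: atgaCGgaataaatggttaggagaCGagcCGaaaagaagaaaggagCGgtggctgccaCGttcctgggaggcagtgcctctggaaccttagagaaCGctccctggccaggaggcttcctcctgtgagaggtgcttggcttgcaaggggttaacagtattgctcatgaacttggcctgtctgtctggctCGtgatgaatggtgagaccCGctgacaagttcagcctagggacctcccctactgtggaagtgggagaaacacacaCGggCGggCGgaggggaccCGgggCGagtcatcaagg
LINC00673, chr17:72592755-72593054, minus strand: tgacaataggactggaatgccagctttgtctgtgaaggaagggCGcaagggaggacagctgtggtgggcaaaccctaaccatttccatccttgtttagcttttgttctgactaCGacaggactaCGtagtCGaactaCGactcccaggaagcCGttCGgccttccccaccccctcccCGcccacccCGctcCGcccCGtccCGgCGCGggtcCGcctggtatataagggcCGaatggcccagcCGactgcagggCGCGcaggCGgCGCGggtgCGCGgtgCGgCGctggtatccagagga
LINC01133, chr1:159960974-159961273, plus strand: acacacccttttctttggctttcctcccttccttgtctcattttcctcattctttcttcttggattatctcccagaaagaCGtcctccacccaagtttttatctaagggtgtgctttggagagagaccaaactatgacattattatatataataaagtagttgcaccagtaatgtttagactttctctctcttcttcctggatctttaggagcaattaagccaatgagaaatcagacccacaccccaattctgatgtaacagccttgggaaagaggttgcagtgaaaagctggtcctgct

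Promoter windows could be matched for 372 members, by the LINC symbol or else by the current RefSeq symbol. A ratio of observed to expected CG sites over 0.6, a usual mark of a CpG island, was found in 42.6% of the 101 matched expressed members and in 24.0% of the 271 matched near-silent ones, against 48.9% of all 27305 RefSeq promoters. Of the motifs sought on both strands, the core of the interferon-stimulated response element stood in 3.76% of members and 3.65% of all windows, and the STAT-type TTCNNNGAA stood in 8.60% of members and 7.88% of all. The forkhead motif GTAAACA was in 6.18% of members and 3.41% of all windows, and the E2F-type TTTCCCGC was in 2.42% of members and 1.66% of all. In expressed and near-silent members the forkhead motif was in 4 (3.96%) and 19 (7.01%), and the interferon element in 2 (1.98%) and 12 (4.43%). The STAT type was in 8.91% and 8.49%, and the E2F type in 2.97% and 2.21%. The median share of G and C bases in the windows was 57.3% and 48%. The motif differences rest on few windows and were not tested. A match is a description of the letters and not a bound site.

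The libraries held 17.7 to 30.3 M reads in genes, with the fewest in the first combination library. Values are normalized read counts. The luminal and epithelial genes ERBB2, KRT8, KRT18, EPCAM and GATA3 were between 1835 and 305779 in every library. Markers of other cell types were mixed. Outside the first combination library, PTPRC and CD3E of leukocytes were at or under 2.30, PECAM1 of endothelium at or under 3.29 and PDGFRA of fibroblasts at or under 3.75. Over all libraries CD68 of the leukocyte list was at 140 to 715, the endothelial genes CDH5 and VWF were at 56.4 to 1529 and 21.8 to 157, and the fibroblast genes COL1A1, COL1A2 and THY1 were at 60.7 to 337, 0 to 58.2 and 0.964 to 59.1. Their part in the results was not tested. The first combination library stood apart. Of the genes with only 1 to 3 reads in the other 11 libraries together, it had a read in 89.0%, whereas the same share for any other library was at most 10.6%. Results of near-silent genes are therefore given with and without it. The libraries also carried spike-in RNAs. The labels name no spike-in mixture, so the libraries were grouped by the relative amounts of 21 abundant spike-ins, with the number of groups set at 3. Libraries in the same group differed by at most 0.260 (SD of the log2 ratios), and those in different groups by at least 0.418. Each group is called a mixture below, which is inferred and not stated by the submitters. The DMSO and lapatinib libraries and the second and the third combination libraries held 1 mixture, the second and the third GSK126 libraries and the first combination library held another, and the first GSK126 library held the last one. Mixture and GSK126 treatment can therefore not be told apart when GSK126 is set against DMSO.

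A member was called expressed when its normalized count was at least 10 in at least 3 of the 12 libraries. By this rule 129 members (25.1%) were expressed and 385 were near-silent, whereas 64.0% of all genes were expressed. Rows named as antisense to another gene were expressed in 44.8% of 638 cases, and small nucleolar RNA and microRNA host-gene rows in 70.7% of 41. Members just inside the threshold, with exactly 3 libraries at 10 or more, averaged 4.96 to 8.21, and those just outside it, with 2 such libraries, averaged 4.63 to 7.71. Without the first combination library 124 members and 13987 of all genes met the rule. Genes without any read have no row, and 177 members and 2307 of all genes had reads only in that library. The shares above count these as near-silent, so they are lower than they would be without that library, more so for members.

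Of the 385 near-silent members, 177 had reads in the first combination library and in no other. Over all genes this held for 2307 of 7991 near-silent ones. These are 34.4% of all members and 10.4% of all genes, and members were near-silent more often. The other 208 near-silent members had at least 1 read elsewhere, 73 of them with 1 to 3 reads in all and 135 with more. The median near-silent member had a normalized count of 4.98 in the first combination library and of 0 in each of the other 11. LINC00558 is an example, chosen after its values were seen, at 22.4 in that library and 0 in all others. LINC00273, chosen in the same way, was at 32.4 in the first combination library and at 0 in both other combination libraries and in every GSK126 library, while it was at 0.979 or 0 with lapatinib and at 2.45, 0 and 1.07 with DMSO. The median reads of near-silent members in the first combination library were 5 in the longest, 4 in the middle and 3 in the shortest group when members with a known transcript length were cut into equal groups by length.

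Leaving that library aside, near-silent members had a read more often with lapatinib than with DMSO. At least 1 read was found for 95, 88 and 100 of them in the lapatinib libraries, against 43, 61 and 55 in the DMSO libraries. The groups did not overlap, with 94.3 ± 6.03 against 53 ± 9.17 members (SD, n = 3 each; two-sided exact permutation p = 0.1, the smallest that 3 against 3 allows). The lapatinib libraries held 24.2 to 26.3 M gene reads and the DMSO libraries 25.4 to 26.8 M, whereas the size factors by which values were scaled were 0.940 to 1.07 with lapatinib against 0.816 to 1.01 with DMSO. The part of depth in this difference was not tested. The same ordering was seen in near-silent genes that are not members, with a read in 30.7 to 31.0% of them with lapatinib against 16.9 to 26.4% with DMSO. With GSK126 the numbers were 42, 80 and 82, which overlap the DMSO libraries (exact permutation p = 0.4), and the second and the third combination libraries had 98 and 74.

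**Figure D1:**
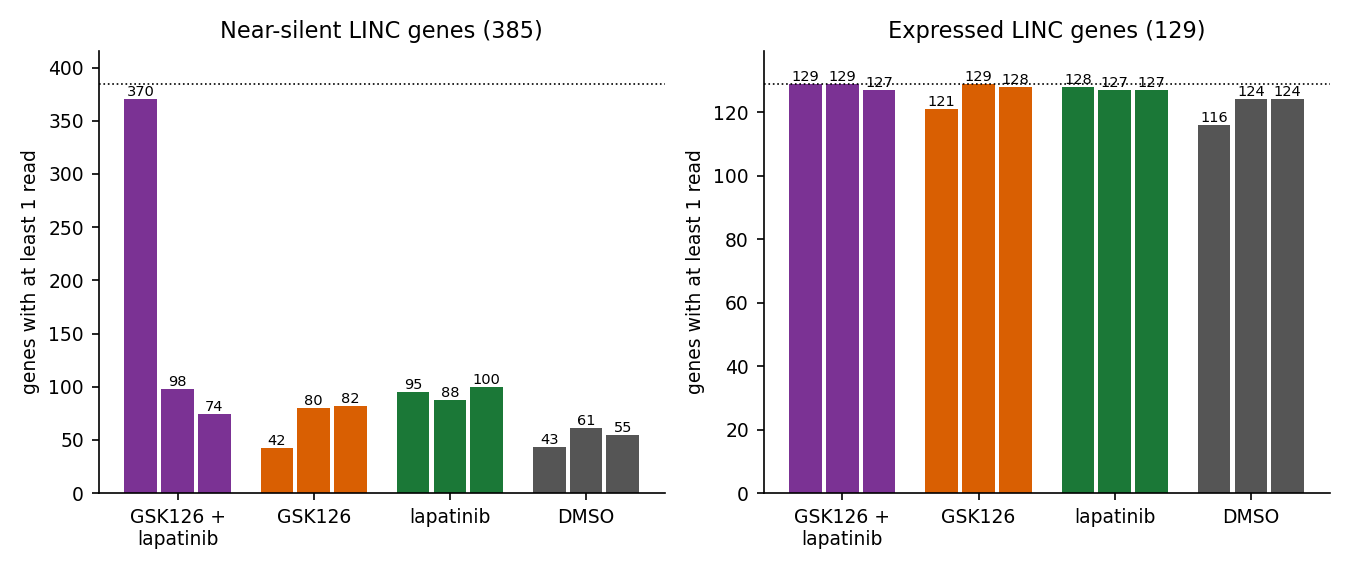
Bars give the number of LINC genes with at least 1 read in each library, for 385 near-silent genes (left) and 129 expressed genes (right), with the 3 libraries of each group side by side and the dotted line at the total. The first combination library has a read in 370 of the near-silent genes, whereas the other 11 have one in 42 to 100.

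Several members that are widely studied in other tissues and tumours were near-silent in SKBR3. LINC00261, the neighbour of the endoderm factor gene FOXA2, was at 7.47 in the first combination library and 0 in all others. LINC00460, LINC00941, LINC00518 and LINC00511 stayed at or under 2.94 in all libraries other than the first combination library. LINC00948 (MRLN), which encodes the muscle micropeptide myoregulin, and LINC00961 (SPAAR), which encodes a lysosomal micropeptide that restrains mTORC1, were at or under 1.88 outside that library. In all, 7 of the 16 members listed for a studied role and 2 of the 5 small-protein members with a row were near-silent.

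The names of 24 members tie them to a partner gene, as divergent, antisense or overlapping transcripts. Of these, 12 were near-silent although the partner was expressed. LINC01135 (JUN-DT) lies head to head with JUN, an immediate early transcription factor gene, and had 4, 1 and 1 reads in the combination libraries, 0, 0 and 3 with GSK126, 0, 2 and 1 with lapatinib and 0, 2 and 0 with DMSO. JUN itself averaged 243 ± 9.05 with lapatinib against 603 ± 40.8 with DMSO (SD, n = 3 each). LINC01185 (REL-DT) had 3 reads in the first combination library and none elsewhere, while REL, an NF-kB subunit gene, averaged 217 with the combination, 361 with GSK126, 179 with lapatinib and 315 with DMSO. Both pairs were chosen after their values were seen.

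The expressed members were dominated by few genes. LINC00657 held 36.9% of the summed level of all members and the 10 highest held 73.2%. Only 35 members averaged over 100 and 81 averaged under 50. LINC00657 was at 13750.3, 14661 and 12699 in the combination libraries, at 9186, 11468 and 9408 with GSK126, at 13409.9, 12898 and 14149 with lapatinib, and at 7992, 8895 and 8956 with DMSO. Per kilobase of the longest annotated transcript, known for 117 of the 129 expressed members, the order differed. LINC01000, which averaged 1767 with DMSO, is among those with no length and was not ranked. LINC00493 (SMIM26), which encodes a small mitochondrial protein, had the highest DMSO level of the 117 at 3088 per kilobase, followed by LINC00674 at 2958, LINC00657 at 1613 and LINC01004 at 913. LINC00998 (SMIM30, a membrane micropeptide gene) followed at 685, and LINC00116 (MTLN, which encodes mitoregulin of the mitochondrial membrane) at 584.

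Lapatinib was set against DMSO to ask what 24 h of HER2 and EGFR inhibition did to these transcripts. On the deposited scaling, most expressed members were higher with lapatinib. Members took 0.134 to 0.144% of gene reads with lapatinib against 0.0871 to 0.0974% with DMSO, and the groups did not overlap (exact permutation p = 0.1, the smallest possible). The difference was also present when LINC00657 was left out, at 0.0843 to 0.0866% against 0.0615 to 0.0648% (exact permutation p = 0.1). The median log2 fold change was 0.55 over the 129 members against 0.04 over all 14179 tested genes, and 92 of 129 were above 0. Rows named as antisense behaved alike, with a median of 0.47 and 71.3% above 0, and the 29 small nucleolar RNA and microRNA host genes had a median of -0.15. Scaled to the spike-in total instead, the median of all genes moved to -0.49 and that of the members to 0.05. Rescaling shifts the genes of a library almost alike, so it bears on the members' direction and not on their distance from other genes.

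Tested with limma across all genes (adjusted p under 0.05), 23 members rose and 7 fell with lapatinib, which is 23.3% of the expressed members against a background of 28% of all tested genes. All 30 had groups that did not overlap. LINC01361, LINC00479 and LINC00930, which rose, reached 10 in fewer than 3 of the libraries compared and passed the filter only through other groups. In one direction, 17.8% of members against 13.7% of genes were called higher, and 5.43% of members against 14.3% of genes were called lower. Regardless of the test, every lapatinib library was above every DMSO library for 48 members (37.2%, against 28.2% of genes) and below for 16 (12.4%, against 27.2%). Of the 30 calls, 12 held when any single library was left out, and each of the others was lost in 1 to 10 of the 12 omissions. Where a single library is named below for a lost call, its omission gave the highest adjusted p. The count lay between 13 (without the first or the second lapatinib library) and 44 (without the first GSK126 library). Here and below, counts under alternatives are of members alone, and those of all genes in the same fits are not given. It was 14 without the third lapatinib library and 18 without the first DMSO library. Spike-in scaling gave 3 calls, LINC00174 higher and LINC00925 and LINC01270 lower. The median standard error of a member was 0.48 on the log2 scale against 0.24 for all genes, and its part in the share called was not tested.

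**Figure D2:**
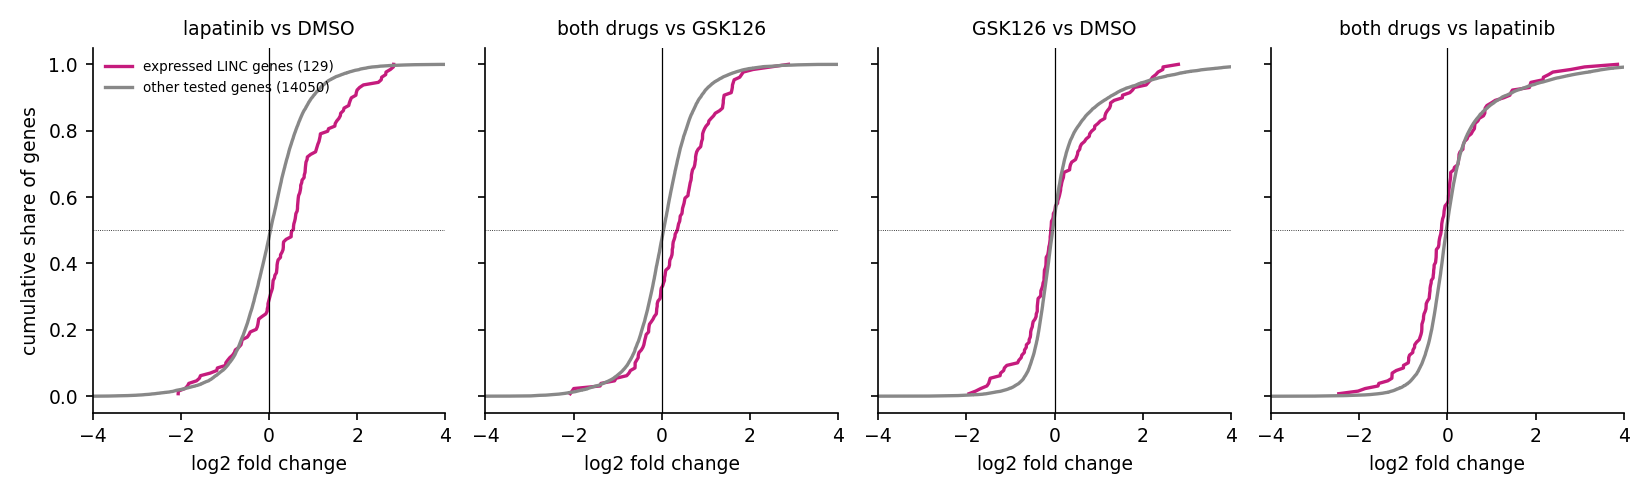
Each panel shows the cumulative share of genes by log2 fold change, on the log2(value + 1) scale, for the 129 expressed LINC genes and the 14050 other tested genes, with values beyond 4 in size not drawn. The LINC curve lies to the right of the other genes in the 2 panels of lapatinib, with medians of 0.55 and 0.36, and close to them in the 2 panels of GSK126.

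LINC00174 was 1 of the members that rose with lapatinib. It was at 153, 119 and 124 with lapatinib, against 27, 20.8 and 9.61 with DMSO, with every lapatinib library above every DMSO library (log2 fold change 2.83 ± 0.46 SE, limma adjusted p = 0.000699). LINC01003 was at 241, 187 and 186 with lapatinib, against 53.9, 74.1 and 60.8 with DMSO (1.69 ± 0.20, limma adjusted p = 6.35e-05). LINC01000 was at 3279, 3276 and 3121 with lapatinib, against 1657, 1924 and 1720.5 with DMSO (0.87 ± 0.13, limma adjusted p = 0.000464). LINC00174, LINC01000 and LINC01003 all lie on chromosome 7, and with no statement on multiply matching reads their values are less certain where near-identical copies exist. LINC00657 rose to 13486 ± 629 with lapatinib, against 8614 ± 539.7 with DMSO (SD, n = 3 each; log2 fold change 0.65, limma adjusted p = 0.00284). It is the member with the most reads, and both groups were tight.

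Less abundant members rose too. LINC00663 averaged 48.5 with lapatinib against 8.74 with DMSO, LINC01061 averaged 114 against 29, LINC01011 averaged 52.7 against 13.1 and LINC01125 averaged 51.3 against 15. RefSeq now files LINC01125 under the protein-coding gene C2orf92. These 4 calls held without any single library. The calls of 4 others did not. LINC01105 (SILC1, studied in mouse neurons as a regulator of the neighbouring Sox11) was at 92, 74.5 and 81.6 with lapatinib, against 23.3, 34.6 and 12.8 with DMSO (limma adjusted p = 0.0407, and 0.146 without the third DMSO library). LINC01144, LINC01023 and LINC01001 averaged 32, 49.7 and 57.1 with lapatinib, against 7.15, 18.5 and 19.5 with DMSO. Their adjusted p-values reached 0.0872 without the second lapatinib library for LINC01144, 0.182 without the third DMSO library for LINC01023 and 0.115 without the first lapatinib library for LINC01001.

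Of the members that fell with lapatinib, LINC00925 had the smallest adjusted p. It was at 94, 109 and 99.5 with lapatinib, against 336, 255 and 322 with DMSO (log2 fold change -1.58 ± 0.18 SE, limma adjusted p = 5.45e-05). The other miR-9 host, LINC00461, chosen after its values were seen, was at 14.7, 13.8 and 9.38 with lapatinib against 3.68, 0 and 10.7 with DMSO, which overlap. LINC00337 (ICMT-DT, the divergent transcript of the prenylcysteine methyltransferase gene ICMT) was at 8.81, 7.45 and 13.1 with lapatinib, against 47.8, 48.4 and 24.5 with DMSO (-1.91, limma adjusted p = 0.0061). LINC01270 was at 10.8, 3.19 and 10.3 with lapatinib, against 39.2, 26.7 and 35.2 with DMSO (-2.06, limma adjusted p = 0.00382). LINC00221 fell to 274 ± 9.11 with lapatinib against 426 ± 5.74 with DMSO (SD, n = 3 each), a small change between very tight groups. LINC00473, which is induced through cAMP and CREB in other cells, was at 7.83, 2.13 and 7.51 with lapatinib against 18.4, 20.8 and 23.5 with DMSO (limma adjusted p = 0.0367, and 0.15 without the second lapatinib library). LINC00857 averaged 128 with lapatinib against 218 with DMSO, a call lost at an adjusted p of 0.129 without the second lapatinib library.

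Abundant members with known functions did not all move. LINC00493 (SMIM26) was at 2243, 2397 and 2076 with lapatinib against 2528, 1643 and 2036 with DMSO, which overlap. LINC00116 (MTLN) had values of 867, 847 and 807 with lapatinib against 1383, 934 and 1279 with DMSO (log2 fold change -0.49, limma adjusted p = 0.128). LINC00152 (CYTOR, named as a cytoskeleton regulator RNA) had values of 648, 614 and 606 with lapatinib against 1200.0, 773 and 951 with DMSO (-0.62, limma adjusted p = 0.142). Both pairs of groups stood apart without passing the test.

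Expressed members often shared the sign of their nearest tested gene in the lapatinib comparison, in 83 of 126 placed pairs (65.9%) against 53.7% of other genes, while 71.3% of members and 52.2% of all genes had a sign above 0. With GSK126 against DMSO the share was 44.4% against 56.5% of other genes, for the combination against lapatinib 52.4% against 58.5%, and for the combination against GSK126 68.3% against 55.2%. In the lapatinib comparison both genes of the pair were called the same way in 7 pairs, 24.1% of the 29 placed members called against 19.2% of other called genes, and both genes were called in 9 pairs in all. For the combination against lapatinib both were called in 0 of 13. With lapatinib, LINC00337 and ICMT both fell (ICMT by 0.52 on the log2 scale, limma adjusted p = 0.0462), as did LINC01270 and its neighbour CEBPB, a C/EBP transcription factor gene (CEBPB by 0.48, limma adjusted p = 0.00835), and LINC00925 and POLG, the mitochondrial DNA polymerase gene (POLG by 0.53, limma adjusted p = 0.00649). LINC01105 rose while SOX11 had a log2 fold change of -0.54 (limma adjusted p = 0.409). Neighbours were found from RefSeq gene positions in GRCh38.p14, and these pairs were chosen after their values were seen.

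GSK126 was set against DMSO to ask which of these transcripts respond to 7 days of EZH2 inhibition. The expressed members as a group did not shift, with a median log2 fold change of -0.08 against -0.04 for all genes. With limma 8 members rose and 4 fell, which is 9.30% of members against a background of 14.6% of tested genes. Of those that rose, LINC01279, LINC01133, LINC00597 and LINC00479 reached 10 in fewer than 3 of the DMSO and GSK126 libraries. They passed the filter only through libraries of the other groups, and a fit of only the compared groups did not test them. The share higher was 6.20% of members against 10.7% of genes, and the share lower was 3.10% against 3.93%. Groups stood apart upward in 18 members (13.95%, against 14.4% of genes) and downward in 12 (9.30%, against 9.59%). Without the first GSK126 library 13 were called, 6 of them among these 12. The count was 6 without the third DMSO or the second combination library, and 7 without the first or the second DMSO library. It was 1 when the spike-in mixture was added as a term and 2 under spike-in scaling. It was also 2 with only the compared groups, a fit that tested 100 members. The member called with the mixture as a term was LINC00342 (limma adjusted p = 0.0375). In that fit the first GSK126 library had a mixture of its own and dropped out. The effect of the other mixture could be estimated only from the first combination library against the second and the third. Results with this term for the GSK126 group therefore rest on that 1 library, which stood apart, and cannot separate mixture from GSK126.

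LINC00342 was at 2026, 587 and 925 with GSK126, against 374, 243 and 346 with DMSO (log2 fold change 1.71 ± 0.36 SE, limma adjusted p = 0.0062). The lowest GSK126 library was above the highest DMSO library, and the GSK126 libraries were themselves wide apart. LINC00673 was at 52.6, 74.4 and 145 with GSK126, against 9.81, 19.8 and 14.9 with DMSO (2.45 ± 0.51, limma adjusted p = 0.00558, and 0.219 with the mixture as a term). LINC01116 was at 29.6, 10.7 and 15 with GSK126, against 1.23, 3.95 and 2.13 with DMSO (limma adjusted p = 0.0254, and 0.0889 without the first DMSO library). LINC01133 was at 24.1, 3.07 and 10.6 with GSK126, against 2.45, 0 and 0 with DMSO (limma adjusted p = 0.0312, and 0.103 without the third DMSO library). LINC01024 (MALINC1, a mitosis-associated RNA) was at 38.3, 38.3 and 35.4 with GSK126, against 1.23, 18.8 and 16 with DMSO (limma adjusted p = 0.0464, and 0.0883 without the third GSK126 library). The other 3 that rose, LINC01279, LINC00597 and LINC00479, averaged under 20 in both groups and were outside the rule for this comparison.

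LINC00925 also fell with GSK126, to 159.9, 177 and 169 against 336, 255 and 322 with DMSO (log2 fold change -0.84 ± 0.18 SE, limma adjusted p = 0.00783, and 0.315 with the mixture as a term). LINC00998 (SMIM30) was at 333, 512 and 551 with GSK126, against 675, 742 and 782 with DMSO (-0.69, limma adjusted p = 0.027, and 0.0965 without the third DMSO library). LINC00940 was at 3.29, 6.9 and 14.1 with GSK126, against 28.2, 41.5 and 22.4 with DMSO (-1.94, limma adjusted p = 0.026, and 0.0937 without the second DMSO library). LINC00641 averaged 88.8 with GSK126 against 178 with DMSO, a call lost at an adjusted p of 0.132 without the third DMSO library.

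Few members were switched on. Counting genes under 5 in every DMSO library and at 10 or more in every GSK126 library, 1 of 361 members passed, LINC01116, against 1.5% of all genes that started under 5. For the combination against lapatinib the count was 3 of 356 (LINC01279, LINC01133 and LINC00475), against 2.36% of genes. For lapatinib against DMSO it was 0 of 361, against 0.362% of genes. LINC00475 was at 13.7, 12.1 and 11.6 in the combination libraries, at 4.38, 3.07 and 2.65 with GSK126, and at 0.979, 3.19 and 4.69 with lapatinib. The first combination library was not far from the other 2 for LINC00475. LINC01279, which RefSeq now files under the protein-coding extracellular matrix gene CCDC80, was at 23.6, 19.4 and 19.3 with the combination against 4.9, 2.13 and 2.82 with lapatinib.

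The combination was set against lapatinib to give the effect of GSK126 in the presence of lapatinib. Its group means share no library with those of GSK126 against DMSO, but each gene's spread was estimated over all 12 libraries in every comparison. With limma 7 members rose and 7 fell, 10.9% of members against a background of 17.9% of genes, and the median was -0.13. Each direction held 5.43% of members, against 11.5% of genes higher and 6.35% lower. LINC00839, which rose, passed the filter only through libraries outside the groups compared. Groups stood apart upward in 22 members (17.1%, against 23.7% of genes) and downward in 32 (24.8%, against 23.6%). The count lay between 7 (without the second lapatinib library) and 23 (without the first GSK126 library). It was 8 without the third combination library, and 9 without the first or the second one. It was 18 when only libraries of the first spike-in mixture were used, which leaves out the first combination library.

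LINC01133 was at 18.7, 23.5 and 36.6 with the combination, against 0, 1.06 and 1.88 with lapatinib (log2 fold change 3.86 ± 0.80 SE, limma adjusted p = 0.00402). LINC00673 was at 89.6, 67.1 and 88.7 with the combination, against 11.8, 3.19 and 15 with lapatinib (3.11 ± 0.51, limma adjusted p = 0.000803). LINC00342 was at 1282, 1531 and 2255 with the combination, against 330.0, 391 and 375 with lapatinib (2.17 ± 0.36, limma adjusted p = 0.000886). For these 3 the second and the third combination libraries alone stood above every lapatinib library. LINC00925 fell further, to 42.3, 38.8 and 43.4 with the combination against 94, 109 and 99.5 with lapatinib (-1.26 ± 0.18, limma adjusted p = 0.000333). LINC00940 was at 12.4, 13.8 and 3.86 with the combination, against 55.8, 52.2 and 52.6 with lapatinib (-2.46, limma adjusted p = 0.00522). LINC01278 averaged 209.6 with the combination against 462 with lapatinib (-1.16, limma adjusted p = 0.00447). These 6 calls held without any single library. Under spike-in scaling 3 of them were kept, while the adjusted p by limma was 0.061 for LINC00673, 0.113 for LINC00925 and 0.157 for LINC01278.

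The other members named in this comparison depended on single libraries. LINC01270, which had fallen with lapatinib, averaged 21.7 with the combination against 8.1 with lapatinib (limma adjusted p = 0.0348, and 0.154 without the second lapatinib library). LINC00221 averaged 379.7 against 274 (limma adjusted p = 0.0383, and 0.142 without the third combination library). LINC00998 averaged 539 against 921 (limma adjusted p = 0.0109, and 0.0516 without the third combination library). LINC00265 averaged 281 against 519.9, and its adjusted p was 0.0884 without the second combination library. LINC01089 averaged 314 against 520.5, with an adjusted p of 0.17 without the first combination library, and LINC01134 averaged 19.3 against 47.6, with an adjusted p of 0.169 without the third combination library. LINC01279 rose here, with an adjusted p of 0.087 without the second lapatinib library.

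The combination was set against GSK126 to give the effect of lapatinib after EZH2 inhibition. With limma 11 members rose and 2 fell, 10.1% of members against a background of 18.2% of genes, and the median was 0.36 against 0.04 for all genes, with 87 of 129 above 0. The share higher was 8.53% of members against 8.48% of genes, and the share lower was 1.55% against 9.71%. Groups stood apart upward in 25 members (19.4%, against 15.6% of genes) and downward in 5 (3.88%, against 14%). Members took 0.131 to 0.160% of gene reads with the combination against 0.0949 to 0.116% with GSK126 (exact permutation p = 0.1, the smallest possible). The count lay between 4 (without the second combination library) and 22 (without the first GSK126 library). It was 6 without the first combination library, 7 without the third combination or the third lapatinib library, and 8 without the first or the second lapatinib library. It was 2, with 1 higher and 1 lower, both with the spike-in mixture as a term and with only the compared groups in the fit. Here too the mixture term rests on the first combination library. Spike-in scaling gave 0 higher and 10 lower. Scaled to the spike-in total, the median of all genes moved to -0.99 and that of the members to -0.61.

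LINC00174 was at 103, 114 and 83.8 with the combination, against 9.86, 13 and 38 with GSK126 (log2 fold change 2.47 ± 0.46 SE, limma adjusted p = 0.00271, but 0.0639 with the spike-in mixture as a term and 0.117 under spike-in scaling). LINC01003 was at 159, 179 and 168 with the combination, against 96.4, 95.1 and 80.4 with GSK126 (0.89, limma adjusted p = 0.00886, but 0.112 with the mixture as a term and 0.056 with only the compared groups). LINC01000 averaged 2803 with the combination against 1867 with GSK126 (0.59, limma adjusted p = 0.0091, but 0.103 with only the compared groups), and LINC00657 averaged 13703 against 10020.5 (0.46, limma adjusted p = 0.0287, but 0.126 without the second combination library and 0.192 with the mixture as a term). LINC01003, LINC01000 and LINC00657 had negative log2 fold changes under spike-in scaling, of -0.15, -0.45 and -0.59. LINC00925 was at 42.3, 38.8 and 43.4 with the combination, against 159.9, 177 and 169 with GSK126 (-2.00 ± 0.18, limma adjusted p = 1.19e-05). It was called under every alternative tried in this comparison, spike-in scaling included.

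The other named members of this comparison were lost without 1 library or more, and also with the mixture as a term. LINC00847 averaged 91.3 with the combination against 43.3 with GSK126 (adjusted p = 0.08 by limma without the first combination library), and LINC00909 (ZNF407-AS1, antisense to a zinc finger gene) averaged 239.9 against 133 (0.0589 without the second combination library). LINC00667 averaged 100.3 against 45.3 (0.109 without the third combination library). LINC00324 averaged 168 against 102 (0.107 without the second combination library), and LINC01061 averaged 83.7 against 31.3 (0.125 without the first combination library). LINC00930 and LINC00957 averaged 20.9 and 24.7 with the combination, against 2.53 and 9.19 with GSK126, and reached 0.119 and 0.106 without the third combination library. LINC00284 (NRAD1, linked to the aldehyde dehydrogenase 1A pathway in breast cancer) fell, to 11.2, 9.71 and 2.89 with the combination against 19.7, 45.2 and 38.9 with GSK126 (limma adjusted p = 0.0388, and 0.128 without the third combination library).

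**Figure D3:**
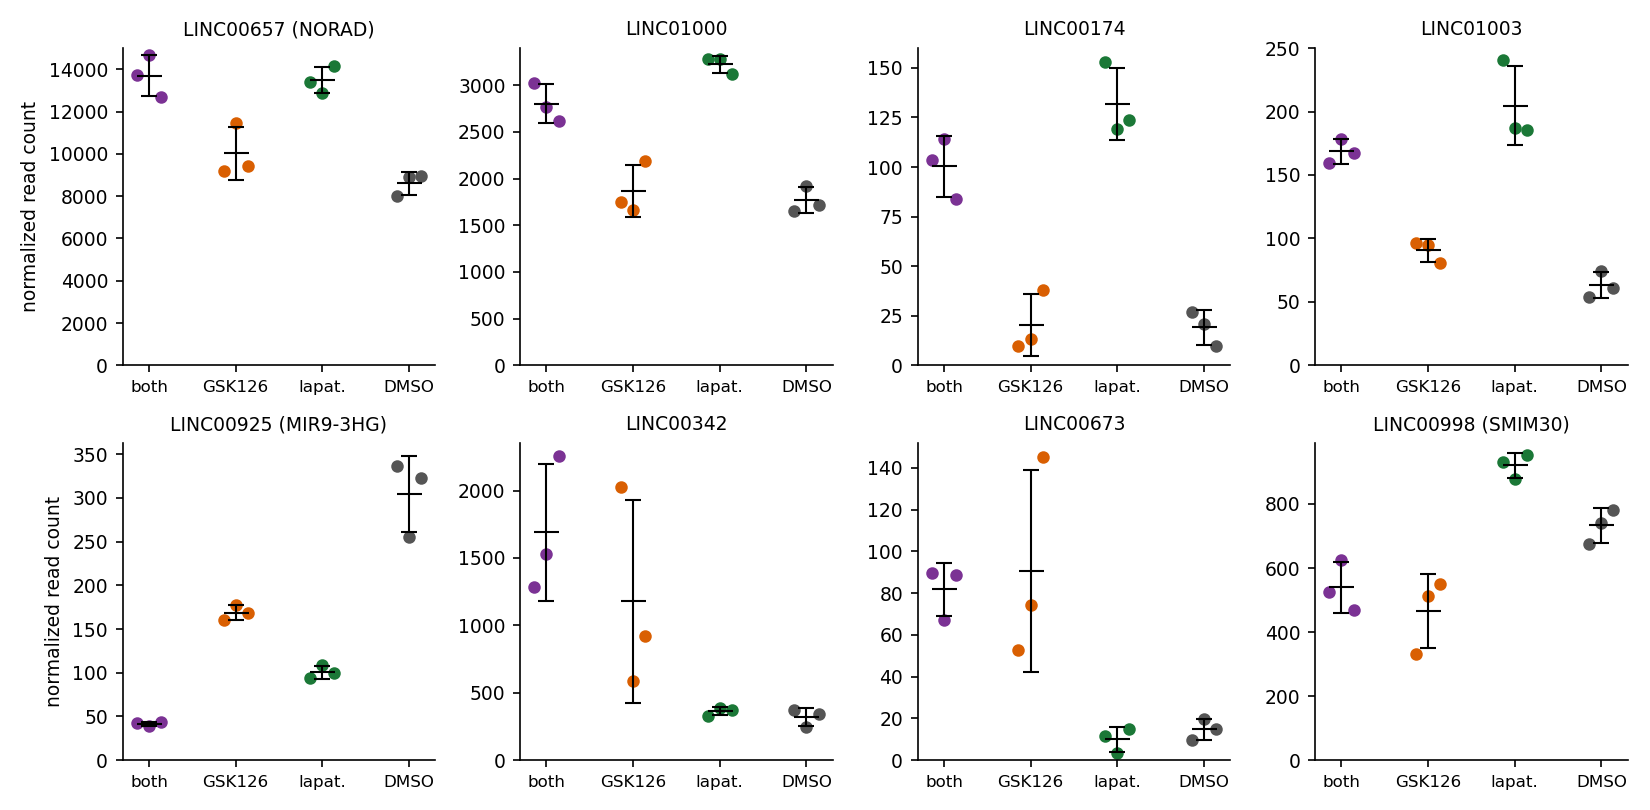
Normalized read counts of 8 LINC genes in every library, with points for libraries, a horizontal bar for the group mean and whiskers of 1 SD (n = 3). LINC00925 averages 41.5 with both drugs, 169 with GSK126, 101 with lapatinib and 304 with DMSO, and LINC00342 and LINC00673 are high in the 2 groups with GSK126.

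Whether the effect of 1 drug depended on the other was tested as an interaction. No member passed (limma, smallest adjusted p = 0.438), and of 14179 genes 2 were called higher (0.0141%) and 1 lower (0.00705%), 3 in all (0.0212%). On the recovered reads edgeR and DESeq2 also called 0 members. The median standard error of a member's interaction was 0.68 on the log2 scale, and departures larger than that could also have been missed.

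Each drug's fold change was measured in a pair of comparisons whose group means share no library. The calls are not from separate data, since a gene has 1 standard error, estimated over all 12 libraries, in each of the 4 comparisons. For lapatinib, 102 of 129 members (79.1%, against 80.7% of all genes) had the same sign without and with GSK126. Pearson r was 0.66 across members, which are not independent replicates, against 0.76 over all genes. The 9 members called in both are 30% of those called without GSK126 and 69.2% of those called with it. Over all genes these shares were 50.2% and 77.4%. For GSK126, 87 of 129 (67.4%, against 74.6% of all genes) had the same sign without and with lapatinib (r = 0.63, against 0.82 over all genes). The 7 called in both are 58.3% of those called without lapatinib and 50% of those called with it, against 71.5% and 58.3% over all genes. LINC00925 is in both sets and was lower in all 4 comparisons.

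**Figure D4:**
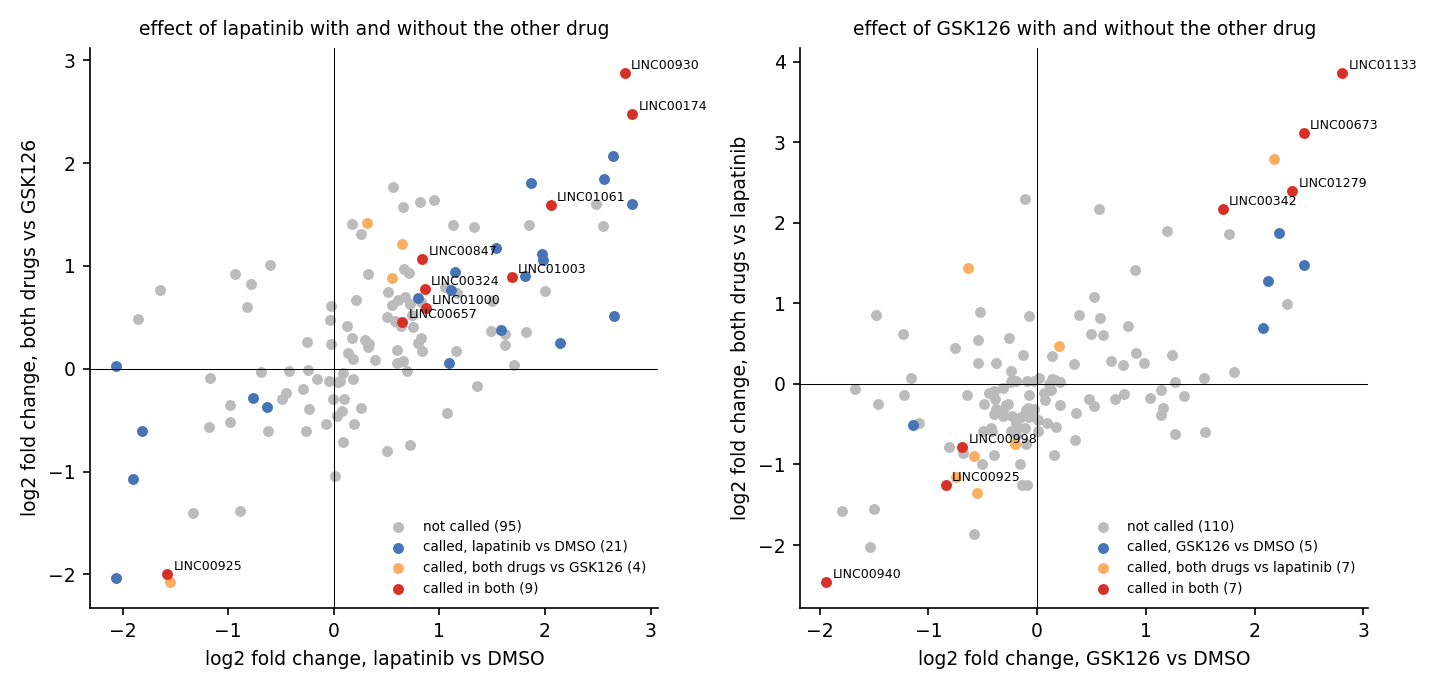
Each point is 1 of 129 expressed LINC genes. The left panel sets the log2 fold change of lapatinib against DMSO (x) beside that of both drugs against GSK126 (y), the right panel that of GSK126 against DMSO (x) beside that of both drugs against lapatinib (y), and red points are the 9 and 7 genes called in both.

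**Figure D5:**
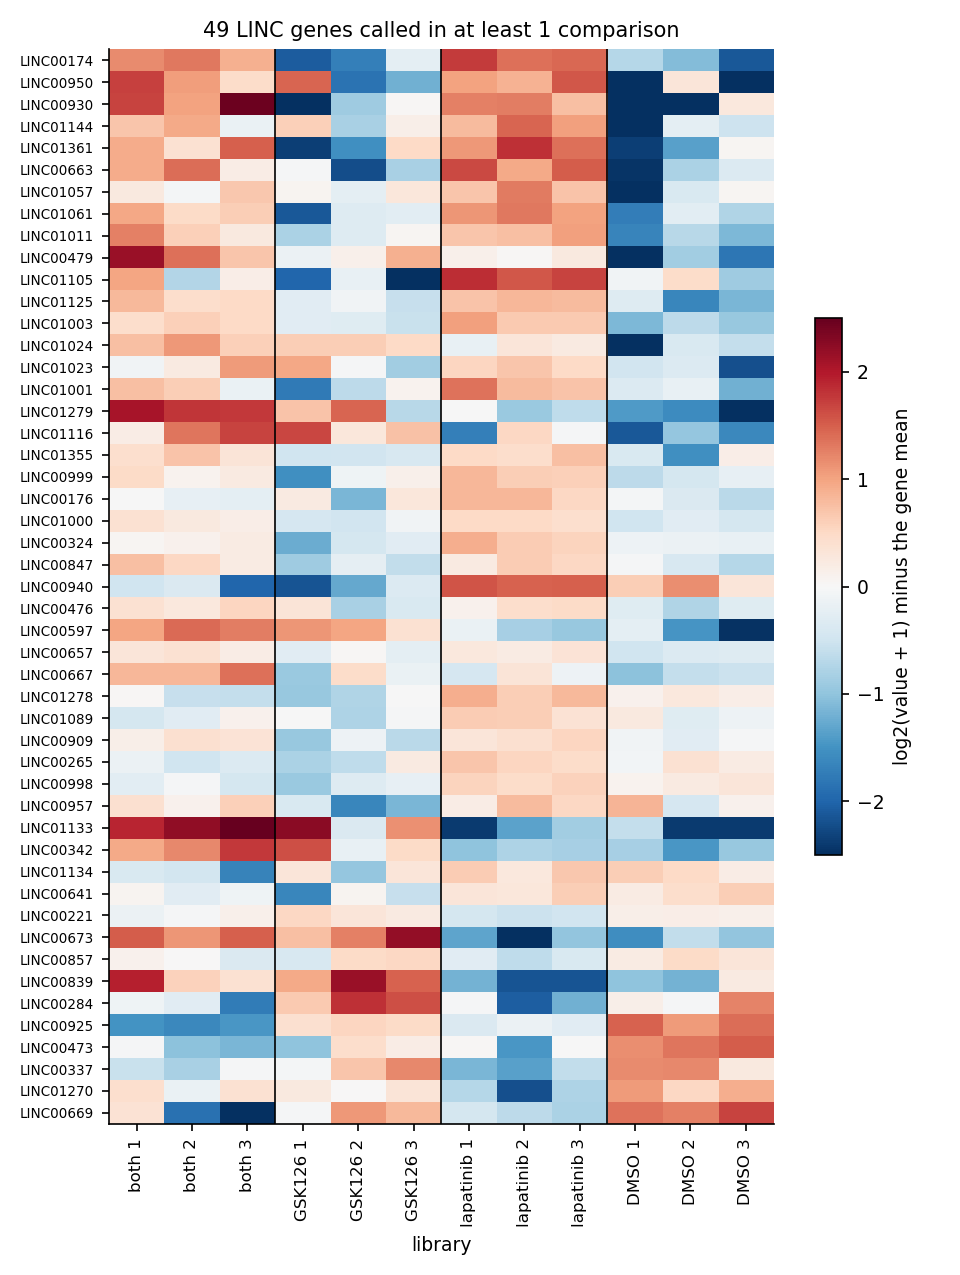
Rows are the 49 LINC genes called in at least 1 of the 4 comparisons, ordered by the lapatinib against DMSO fold change, and columns are the 12 libraries. Colour is log2(value + 1) minus the gene's mean over the libraries, with colours saturated at 2.5. The top rows are high in the lapatinib and combination libraries, and LINC00342, LINC00673 and LINC01133 are high in the GSK126 and combination libraries.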

How the data were processed

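Reads were aligned with STAR to hg19 and normalized with DESeq2, per the submitters' processing notes; versions, the counter, the annotation and strand use are not given in the sources used here. The authors deposited a normalized signal: the reads of each gene, scaled by the size factor of its library. All values (100%) were whole multiples of the value of 1 read within 0.01, so reads were recovered. The library kit captures polyadenylated RNA, so transcripts without a tail would be under-represented. The table held 22256 rows, of which 86 were spike-ins and 27 symbols had become dates.

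Tests used limma 3.58.1 (R 4.3.3). Its input was log2(value + 1) of all 12 libraries, fitted with a mean per group, a trended prior and Benjamini-Hochberg adjustment over 14179 genes with at least 10 in at least 3 libraries, called at an adjusted p under 0.05. The added 1 affects the fold changes of low genes most. The median over members for lapatinib against DMSO was 0.55 here and 0.41 with edgeR on the recovered reads. It was 0.36 and 0.27 for the combination against GSK126, -0.08 and 0.004 for GSK126 against DMSO, and -0.13 and -0.11 for the combination against lapatinib. On recovered reads edgeR 4.0.16 (quasi-likelihood) called 24, 8, 14, 12 and 0 members for lapatinib against DMSO, GSK126 against DMSO, the combination against lapatinib, the combination against GSK126 and the interaction, and DESeq2 1.42.0 was an alternative too. Other alternatives were pseudocounts of 0.5 and 5, filters, scalings, a constant prior, fits of only the groups compared, the spike-in mixture, the replicate number as a block and leaving out each library.

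Members and lists were chosen with earlier results of these data known. Named members are, per comparison, the 10 largest called increases and decreases where the higher group averaged 20 or more, the 10 highest members, members that encode small proteins or have a studied role, and members switched on. Symbols, neighbours, promoters and microRNAs came from RefSeq GRCh38.p14 (427 members matched by symbol, 85 by synonym), and transcript lengths from a GENCODE annotation. Each length is that of the longest transcript under the LINC symbol, or else under the RefSeq symbol. The longest transcript need not be the one expressed here. Because these builds differ from hg19, genes were joined to the values by symbol. Coordinates of GRCh38.p14 were used only for neighbours, hosted microRNAs and promoter windows. A member with no window under its LINC symbol was given that of its RefSeq symbol, as LINC01279 was given that of CCDC80. Depth limits precision: the value of 1 read was 0.767 to 1.24.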

Additional observations from a re-analysis of the deposited data

How the results depend on the processing

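The numbers of members called were 30 for lapatinib against DMSO, 12 for GSK126 against DMSO, 14 for the combination against lapatinib and 13 for the combination against GSK126. A filter of 50 gave 19 for lapatinib against DMSO and 6 for GSK126 against DMSO. Spike-in scaling gave 3 for lapatinib against DMSO, 2 for GSK126 against DMSO and 3 for the combination against lapatinib. For the combination against GSK126 it gave 10, with 0 higher and 10 lower, and there it turned the sign of LINC01003 (-0.15), LINC00909 (-0.16), LINC00324 (-0.26), LINC01000 (-0.45) and LINC00657 (-0.59). Fits that used the compared groups alone gave 2 for GSK126 against DMSO, 32 for the combination against lapatinib and 2 for the combination against GSK126. These fits tested 100, 116 and 116 members, those that passed the filter in the compared groups. The spike-in mixture as a term gave 1 for GSK126 against DMSO and 2 for the combination against GSK126, and in both that term rests on the first combination library. DESeq2 gave 23 for the combination against lapatinib and 23 for the combination against GSK126. Leaving out 1 library gave 13 to 44, 6 to 13, 7 to 23 and 4 to 22 in the order above, and the interaction was 0 in each case. The counts of all genes under these alternatives are not given, so the ranges cannot be read as particular to members. The causes were not tested.

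Switched-on counts were 1 for GSK126 against DMSO and 3 for the combination against lapatinib. A ceiling of 2 gave 0 and 1, a floor of 5 gave 6 and 6, and a floor of 20 gave 0 and 0. Total-count scaling gave 2 for GSK126 against DMSO. Leaving out 1 library gave 1 to 2 and 3 to 4.

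With the replicate number as a block the counts were 23, 11, 13, 12 and 0, the last for the interaction. Deviations from the group means had correlations from -0.33 to 0.35 between same-numbered libraries, and from -0.48 to 0.44 between others. With 3 libraries per group these cannot decide whether the numbers pair libraries, and the labels do not say. A fit of only the groups compared could not be had for the interaction, nor one of the first mixture only for comparisons with the GSK126 group. Counts of under about 10 reads limit what can be said of most members.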
